A study of Mus musculus with 12 samples.

Results

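The genes of the respiratory chain that lie in the nuclear genome were examined in CUT&RUN peak lists from Min6 cells. They were chosen by name as protein-coding genes of the GENCODE vM21 annotation, on the GRCm38 mouse build and not on mitochondrial DNA, whose symbols start with Nduf and a, b, c, s or v, with Uqcr, with Cox4 to Cox8 or with Atp5, or are Sdha, Sdhb, Sdhc or Sdhd. The rule found 94 gene models with 93 symbols among 21938 protein-coding genes, since Atp5o has a second model. The rule used names and no measured value, although it was set with earlier results of these data known. The name rule also takes in the complex I assembly factors (Ndufaf genes), Cox7a2l and Atp5s, 10 genes in all that are not subunits of a complex.

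CUT&RUN releases DNA beside an antibody-bound protein with a tethered nuclease. Min6 is a cell line from a mouse insulinoma that serves as a β cell model. For 48 hours the cells were given 20 µM SP600125, which inhibits JNK, the kinase of cJun (these samples are called JNKi), or DMSO as the solvent control, and reactions of 550000 cells used antibodies against cJun, against H3K4me3 or a control IgG, which gave 6 groups of 2 replicates and 12 samples. The 4 peak lists analysed here each join both replicates of a treatment with the cJun or the H3K4me3 antibody, and IgG was not analysed here. Per the methods each sample was sequenced to a nominal 30000000 reads, and the mapped reads behind each list were not analysed here, so a shorter list and weaker binding cannot be told apart. H3K4me3 peaks lay at 7 of 8 β cell marker genes in both treatments, without Ins1, and at 4 of 13 markers of other cell types found in the annotation.

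The respiratory chain passes electrons from NADH (complex I) and succinate (complex II) through complex III to oxygen at complex IV, and complex V, the ATP synthase, uses the resulting proton gradient to make ATP. In β cells the ATP made from glucose closes potassium channels of the plasma membrane and so triggers insulin release. Nearly all subunits are encoded in the nucleus, where NRF1, the ETS factor GABP, YY1 and the estrogen-related receptors are known regulators of many of them. H3K4me3 marks the promoters of active genes, and cJun, which JNK phosphorylates, is an AP-1 transcription factor that binds TGACTCA with Fos partners and TGACGTCA (the CRE) with ATF partners.

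A cJun peak lay within 200 bp of the transcription start site (TSS) of 5 genes in DMSO, and the promoters of 4 of them are shown for that reason. Each run has 250 bases before the TSS nearest to the cJun peak and 50 bases from it onward, read on the gene's strand of GRCm38. Capitals mark matches on either strand to 8 motifs: GCGCATGCG (NRF1), CCGGAAG (ETS), AANATGGC (YY1), TCAAGGTCA (ERR), GGGCGG (SP1), CCAAT (the box of that name), TGACGTCA (CRE) and TGACTCA (AP-1).
Cox7a2l, chr17:83514281-83514580, minus strand: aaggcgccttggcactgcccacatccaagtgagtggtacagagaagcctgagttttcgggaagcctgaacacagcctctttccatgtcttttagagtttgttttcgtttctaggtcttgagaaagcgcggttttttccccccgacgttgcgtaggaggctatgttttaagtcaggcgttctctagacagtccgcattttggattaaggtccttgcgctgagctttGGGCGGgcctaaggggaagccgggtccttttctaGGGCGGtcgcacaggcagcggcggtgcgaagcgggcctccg
Cox4i1, chr8:120667972-120668271, plus strand: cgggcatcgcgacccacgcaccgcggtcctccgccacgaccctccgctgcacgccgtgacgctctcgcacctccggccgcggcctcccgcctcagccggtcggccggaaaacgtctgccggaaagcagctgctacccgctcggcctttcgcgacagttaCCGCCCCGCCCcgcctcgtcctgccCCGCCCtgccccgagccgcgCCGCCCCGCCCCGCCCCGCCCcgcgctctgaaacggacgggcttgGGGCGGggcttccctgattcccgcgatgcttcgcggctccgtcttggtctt
Ndufb2, chr6:39592324-39592623, plus strand: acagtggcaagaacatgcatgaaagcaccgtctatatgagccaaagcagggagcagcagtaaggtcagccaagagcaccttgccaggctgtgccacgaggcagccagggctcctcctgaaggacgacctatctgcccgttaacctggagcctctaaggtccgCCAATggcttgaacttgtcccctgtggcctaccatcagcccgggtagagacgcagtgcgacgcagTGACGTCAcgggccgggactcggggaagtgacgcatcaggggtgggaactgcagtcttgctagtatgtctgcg
Ndufv2, chr17:66101510-66101809, minus strand: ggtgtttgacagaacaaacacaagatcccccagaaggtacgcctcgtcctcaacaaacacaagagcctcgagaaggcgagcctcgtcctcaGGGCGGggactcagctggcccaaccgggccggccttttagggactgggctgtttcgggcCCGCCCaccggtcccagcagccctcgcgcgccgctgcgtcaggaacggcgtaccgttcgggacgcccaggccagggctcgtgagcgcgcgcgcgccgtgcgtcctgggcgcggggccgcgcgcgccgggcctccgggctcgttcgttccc
In these runs only Ndufb2 held CRE letters, with their first base 23 bases before the TSS, and none held AP-1 letters. The Cox4i1 promoter held 8 copies of the SP1 letters, some of them overlapping.

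A second set of promoters is shown because they held the most kinds of motif, in the same window about the gene's 5′ end. Where several promoters held the same number, the one with the higher-ranked H3K4me3 peak was taken.
Cox6a1, chr5:115348932-115349231, minus strand: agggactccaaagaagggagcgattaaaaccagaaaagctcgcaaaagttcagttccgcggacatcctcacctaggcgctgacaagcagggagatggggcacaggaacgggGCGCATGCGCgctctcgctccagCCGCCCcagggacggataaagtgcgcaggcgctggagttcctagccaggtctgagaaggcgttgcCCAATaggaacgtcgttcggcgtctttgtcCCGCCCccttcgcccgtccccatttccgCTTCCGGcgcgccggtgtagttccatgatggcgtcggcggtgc
Ndufaf8, chr11:120098678-120098977, plus strand: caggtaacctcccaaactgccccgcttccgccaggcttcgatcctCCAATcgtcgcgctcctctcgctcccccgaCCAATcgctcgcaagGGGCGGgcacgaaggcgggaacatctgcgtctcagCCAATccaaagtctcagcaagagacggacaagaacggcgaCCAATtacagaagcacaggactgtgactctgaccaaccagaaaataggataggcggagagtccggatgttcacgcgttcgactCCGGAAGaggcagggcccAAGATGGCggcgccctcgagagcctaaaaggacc
Uqcrh, chr4:116075022-116075321, minus strand: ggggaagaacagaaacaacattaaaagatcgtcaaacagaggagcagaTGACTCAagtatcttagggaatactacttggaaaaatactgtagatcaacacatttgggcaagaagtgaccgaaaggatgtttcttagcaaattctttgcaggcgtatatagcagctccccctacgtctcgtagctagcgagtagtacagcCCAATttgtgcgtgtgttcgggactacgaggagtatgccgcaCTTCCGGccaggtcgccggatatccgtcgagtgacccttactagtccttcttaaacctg
Cox6a1 held a palindromic run with NRF1 letters on both strands, an ETS match 8 bases after the start, SP1 letters and a CCAAT box. Ndufaf8 held 4 CCAAT boxes, SP1 letters, and ETS and YY1 letters about the start. Uqcrh held the AP-1 letters with their first base 202 bases before the start, and no cJun peak was called there in either list.

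Nearly every respiratory chain gene carried H3K4me3 in these cells. A peak lay within 3 kb of a TSS for 88 of 94 genes in DMSO (93.6%, exact 95% interval 86.6 to 97.6) and for 88 in JNKi, where 60.1% of all protein-coding genes were marked in DMSO and 59.5% in JNKi. Such intervals cover counting error only. The 6 gene models without a peak were the same in both lists. They were Cox4i2, Cox6a2, Cox7b2, Cox8b and Cox8c, which encode tissue-restricted forms of complex IV subunits, and the second Atp5o model, whose span overlaps the marked one.

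The mark reached all 44 complex I genes, all 4 of complex II and all 8 of complex III, in both treatments. For complex IV it reached 15 of 20 genes, and for complex V 17 of 18 gene models. Of the 8 complex IV genes listed as tissue-restricted or paralogous forms, Cox6b2, Cox7a1 and Ndufa4l2 were marked. Their peaks were narrow or distant. The Cox6b2 peak spanned 1424 and 1350 bp in the DMSO replicates and 1094 and 1251 bp in the JNKi replicates, the narrowest among the marked genes in both lists. The Cox7a1 peak spanned 1118 and 1519 bp in DMSO and 1182 and 1379 bp in JNKi, next in order. The main peak of Ndufa4l2 lay 1332 bp from its nearest TSS in DMSO.

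The main H3K4me3 peak of a gene, taken as its highest by −log10 p, was of middling width. Its median width was 2776.5 bp in DMSO (95% interval of the median 2504 to 3043) against 2575.5 bp at the 13100 other marked genes (2556 to 2601). In JNKi the medians were 2794 bp and 2642 bp. The interval of the respiratory chain genes covered the other genes' median in both treatments. The spread was narrower than elsewhere, with quartiles of 2265 and 3476.5 bp against 1852 and 3400 bp in DMSO. No marked respiratory chain gene had a main peak under 1 kb in either list, whereas 6.78% of the other marked genes did in DMSO and 6.44% in JNKi. Broad domains of at least 5 kb were also rare. Ndufb10 had one in DMSO, and Ndufb10 and Uqcrh had one in JNKi, beside 4.99% and 5.20% of the other marked genes.

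**Figure D1:**
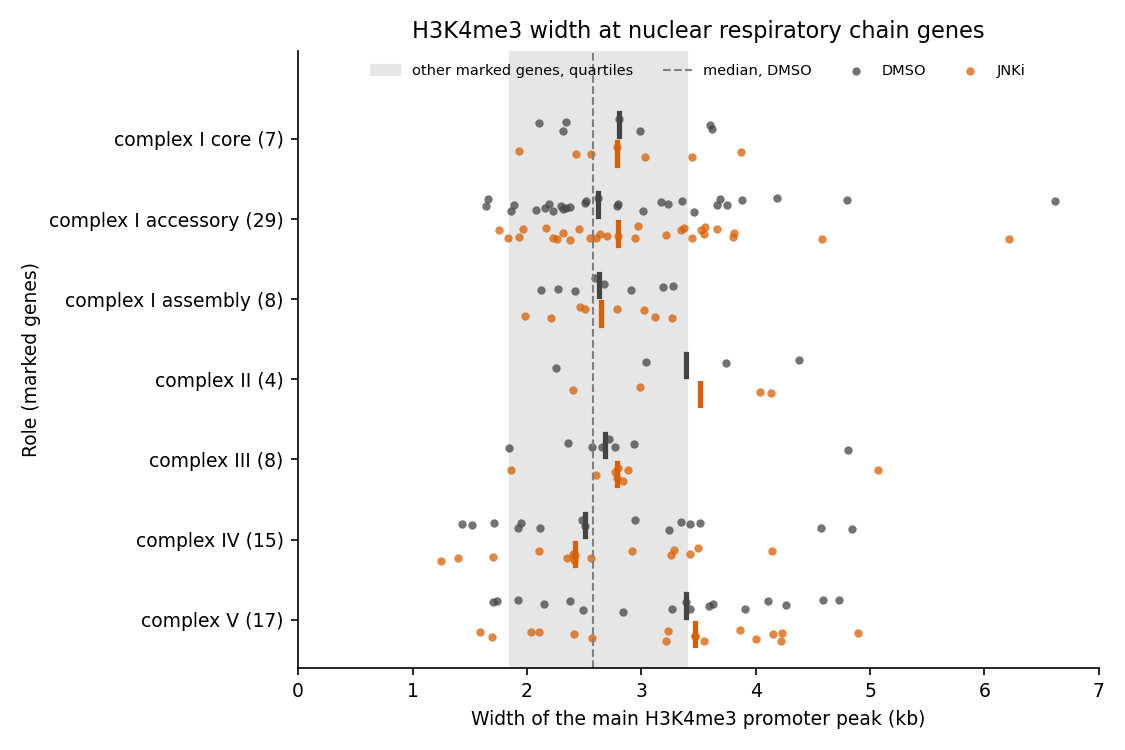
Width in kb of the main H3K4me3 peak of each marked respiratory chain gene, by role, in DMSO (grey points) and JNKi (orange points). Each point is 1 gene, short bars are medians by role, and the shaded band and dashed line are the quartiles and median of the other marked genes in DMSO. Most points lie inside the band, Ndufb10 stands alone above 6 kb, and in DMSO the median of complex IV lies to the left of the dashed line and those of the other roles to its right.

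By role, the widest medians belonged to complex II (3394 bp in DMSO, 4 genes) and complex V (3391 bp, 17 genes). Complex I core subunits, which carry the flavin and iron-sulfur clusters or bind the quinone, had a median of 2808 bp (7 genes). Complex III had 2685.5 bp, complex I assembly factors 2632.5 bp, complex I accessory subunits 2624 bp and complex IV 2506 bp. Individual genes spread far more than these medians, from 1429 to 6619 bp in DMSO and from 1251 to 6219 bp in JNKi.

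Ndufb10, an accessory subunit of the complex I membrane arm, had the widest peak and the highest rank in both lists. Its peak spanned 6204 and 6598 bp in the DMSO replicates and 6218 and 6204 bp in the JNKi replicates. It ranked 20 of 19372 peaks in DMSO and 68 of 19032 in JNKi. In either list this peak lay within 3 kb of 3 protein-coding genes. The DMSO peak began 295 bp upstream of the Ndufb10 TSS and ran 6323 bp downstream, past the end of the 2419 bp gene. Its summit was 3712 bp downstream of that TSS, against 2160 bp for the JNKi peak. Neither its width nor its rank can be assigned to Ndufb10 alone. Cox5a, a subunit of complex IV at the matrix side, came next in width in DMSO at 4844 and 4662 bp. Uqcrh, the hinge protein of complex III that helps cytochrome c dock, came after it at 4807 and 4743 bp in DMSO and came after Ndufb10 in JNKi at 5071 and 4771 bp. Next in JNKi was Atp5g2, 1 of the genes for the membrane ring subunit c of ATP synthase, at 4891 and 4632 bp. At the narrow end, Ndufb7 (1572 and 1641 bp) followed Cox6b2 and Cox7a1 in DMSO, and Atp5mpl, a small ATP synthase subunit (1586 and 1398 bp), followed them in JNKi. The replicates of a treatment differed by a median of 0.08 on the log2 scale in DMSO and 0.09 in JNKi (88 genes each), and so did those of the other marked genes (0.08 and 0.09).

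Ranked by −log10 p within its list, where the deposited value is the lower of the replicates' values, the mark stood high at these genes. The median rank percentile, with 100 for the highest peak of the list, was 79.7 in DMSO (77.6 to 82.6) and 81.5 in JNKi (78.0 to 84.8). The other marked genes had 70.2 and 70.0, below both intervals. The main peak lay above the list's median for 80 of 88 genes in DMSO (90.9%), against 76.2% of the other marked genes, and in the top 10% for 21 (23.9%), against 17.8%. These are descriptions without a test, and whether gene length or base composition had a part in them was not tested. Without shared peaks the median percentile was 12.5 points above that of the others in DMSO and 14.8 points in JNKi, from 9.56 and 11.4 with them. The median gene length was 7419 bp at the marked respiratory chain genes and 24698 bp at the others.

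Complex V had the highest median percentile by role, 90.1 in DMSO and 91.8 in JNKi, and 9 of its 17 marked genes lay in the top 10% of each list. Among those in DMSO, Atp5d had a main peak 1149 bp from its TSS that lay within 3 kb of 2 protein-coding genes. Atp5b, the catalytic β subunit, ranked 268 in DMSO and 298 in JNKi, and Atp5h, a subunit of the peripheral stalk, ranked 610 and 260. The Atp5h peak lay within 3 kb of 2 protein-coding genes, with its summit 2143 bp upstream of the Atp5h TSS in DMSO. Complex I core subunits had a median of 84.3 in DMSO, and complex IV had the lowest, 74.8. In JNKi complex IV had 81.8, and the lowest was that of complex I accessory subunits, 78.3. After Ndufb10, the highest ranks in DMSO were those of Uqcrh (75) and Ndufb8 (80), a membrane-arm subunit of complex I. In JNKi they were Ndufb8 (143) and Uqcrh (207). Each of these peaks lay within 3 kb of 2 protein-coding genes, and the Uqcrh summit lay 1560 bp upstream of its TSS in DMSO. The rank of a shared peak cannot be assigned to 1 gene.

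The lowest ranks came from replicates that did not match. In DMSO the lowest were Cox5a (rank 17654), Ndufb9 (17249) and Ndufa6 (16818). The −log10 p of Cox5a was 6.31 in the first-listed DMSO replicate and 471 in the second, although its peak spanned 4844 and 4662 bp. Ndufb9, a complex I accessory subunit, had 7.03 and 296, with widths of 3875 and 4177 bp. Ndufa6, an accessory subunit of the LYR family, had 452 and 7.82, with widths of 3142 and 3173 bp. A low rank at these genes went with 1 low replicate value and not with a narrow peak.

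A gap of over 50 percentile points between replicates was found at 5 of 88 genes in DMSO (5.68%), adding Ndufab1 (23.6 and 277) and Atp5g1 (522 and 31.2), and at 2.50% of the other marked genes. In JNKi it was found at 2 genes (2.27%), against 2.14% of the others. Ndufa6 was at 5.98 in the first-listed and 503 in the second-listed JNKi replicate, and Ndufab1, the mitochondrial acyl carrier protein, at 387 and 11.2. These 2 genes were the lowest ranked in JNKi (17628 and 15406), followed by Cox6b2 (13184) with low values in both replicates (28.5 and 24.7). Cox5a had 611 and 495 in JNKi and ranked 735.

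**Figure D2:**
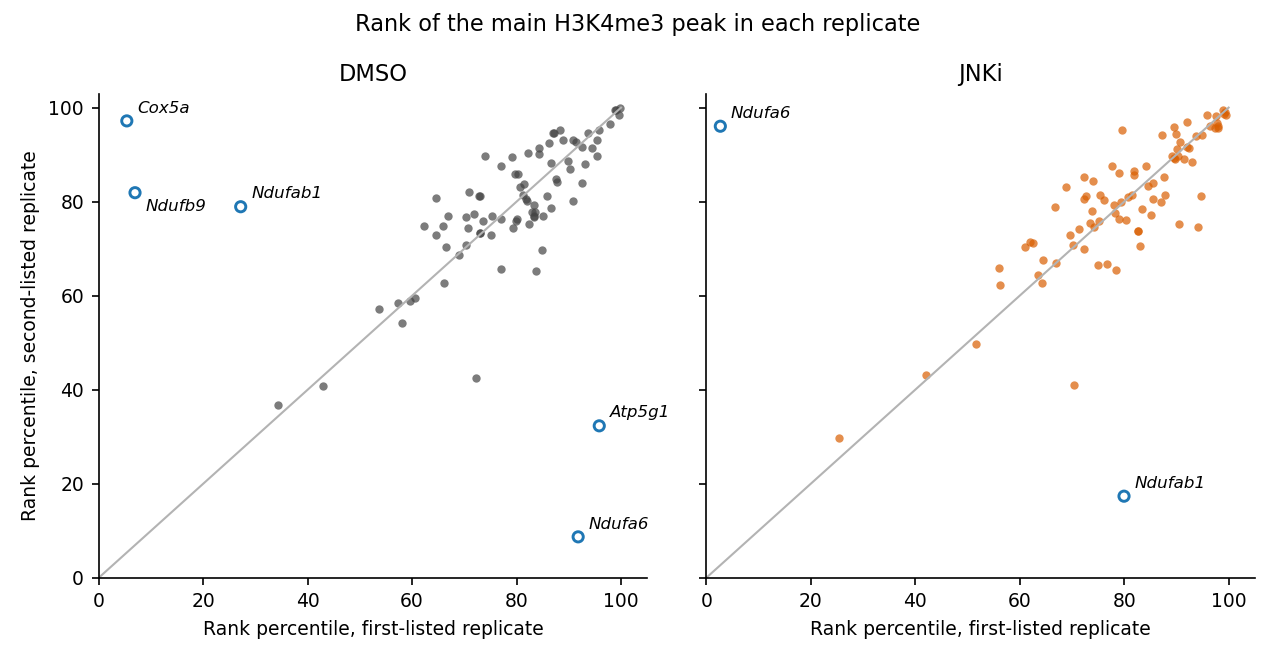
Rank percentile of −log10 p of the main H3K4me3 peak in the first-listed (x axis) and second-listed (y axis) replicate, in DMSO (left) and JNKi (right), with 1 point for each marked respiratory chain gene and a line of equality. Named open circles are genes whose replicates differed by over 50 points, 5 in DMSO and 2 in JNKi, and Uqcrq is among the other points that stand off the line, at 72.3 and 42.5 in DMSO and 70.5 and 41.0 in JNKi.

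No change of H3K4me3 width with JNKi was detected at the respiratory chain genes. Replicate widths were compared between treatments with limma on log2 widths over 11261 pairs of overlapping promoter peaks, with Benjamini-Hochberg adjustment over all pairs. At an adjusted p of at most 0.05, 0 of 87 respiratory chain genes were called, where 1.71% of all pairs were. At an unadjusted p of at most 0.05, 7 of 87 passed, 5 wider and 2 narrower in JNKi, against 8.1% of all pairs. Cox7b was not tested because its main peaks did not overlap, the DMSO one lying 2062 bp from the TSS and the JNKi one covering it.

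The median change of the 87 genes was 0.00 on the log2 scale (95% interval −0.01 to 0.03), and that of all pairs was 0.01. Width was higher in JNKi for 44 genes, where 54.7% of all pairs were wider. Both JNKi replicates were wider than both DMSO replicates at 16 genes (20.4% of all pairs), and both were narrower at 11 (15.2% of all pairs). In JNKi the first-listed replicate was the wider at 63 of 88 genes and at 9736 of 12974 other marked genes. The member median was −0.02 without the first-listed and 0.04 without the second-listed JNKi replicate, and that of all pairs was −0.02 and 0.04.

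The largest decreases were those of Cox5a, Cox6b2 and Ndufb9. Cox5a went from 4844 and 4662 bp in DMSO to 4140 and 3839 bp in JNKi, so that the replicates did not overlap. Its log2 difference was −0.25 (SE 0.06, limma adjusted p = 0.123), the lowest adjusted p among the 87. With each replicate column centred on its median, Cox5a passed (limma adjusted p = 0.0312), where 236 of 11261 pairs were called. Ndufb9 went from 3875 and 4177 bp to 3418 and 3419 bp (−0.23, SE 0.06, limma adjusted p = 0.186). The −log10 p in the first-listed DMSO replicate was only 6.31 at Cox5a and 7.03 at Ndufb9. Cox6b2 differed by −0.25 with an SE of 0.12 (limma adjusted p = 0.718), and by −0.15 without the first-listed and −0.34 without the second-listed JNKi replicate.

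The largest increases were those of Cox6c, Ndufb7 and Atp5k, all of them genes for small subunits. Cox6c went from 1884 and 1857 bp in DMSO to 2156 and 2328 bp in JNKi, a log2 difference of 0.26 (SE 0.08, limma adjusted p = 0.358). Ndufb7 went from 1572 and 1641 bp to 1932 and 1875 bp (0.24, SE 0.09, limma adjusted p = 0.489). The Atp5k replicates differed among themselves in DMSO, at 1532 and 1920 bp, against 2001 and 2023 bp in JNKi (0.23, SE 0.12, limma adjusted p = 0.742). The Atp5k difference was 0.07 without the first-listed and 0.39 without the second-listed DMSO replicate. None of these 6 differences passed the threshold.

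**Figure D3:**
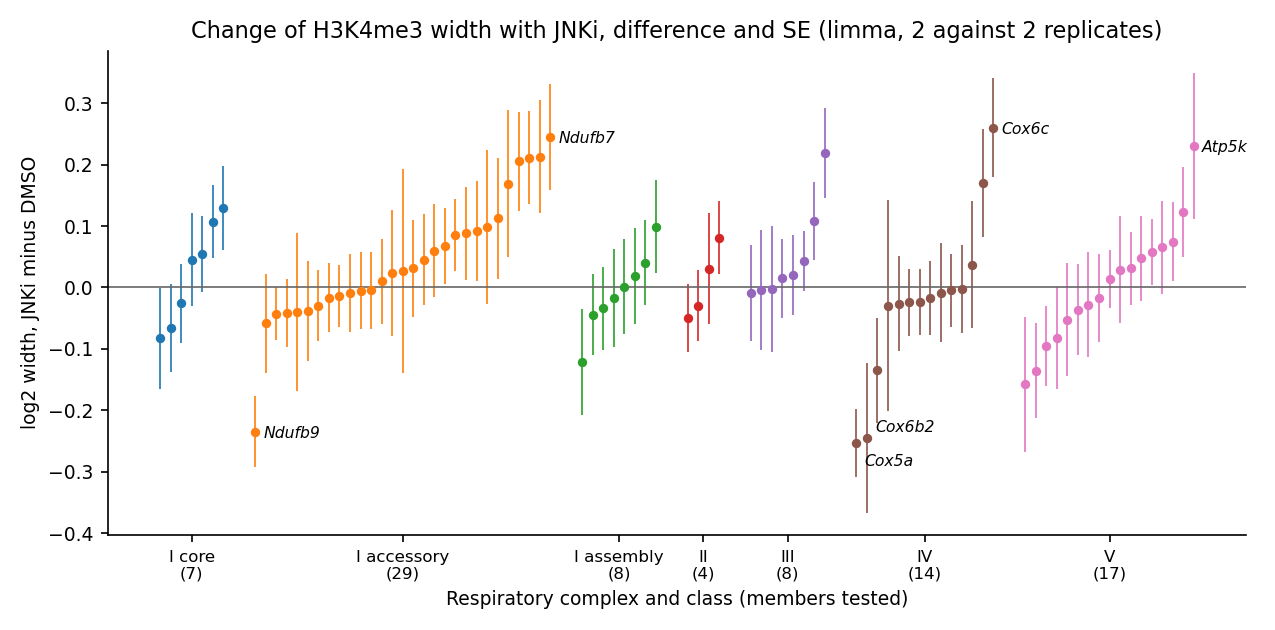
Log2 difference in H3K4me3 width, JNKi minus DMSO (y axis), for the 87 tested respiratory chain genes ordered within their role (x axis). Points are limma estimates and bars are 1 SE from 2 against 2 replicates, and the 3 largest differences in each direction are named. All points lie between −0.25 and 0.26 and none passed an adjusted p of 0.05.

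Rank percentiles gave the same count. With limma on the replicates' percentiles, 0 of 87 genes were called, where 0.0799% of all pairs were, and 7 had an unadjusted p of at most 0.05 against 4.16% of all pairs. Of these 7, 4 were higher and 3 lower in JNKi, and the lowest adjusted p was 0.830. The median difference was 0.73 percentile points (−0.52 to 1.77), and that of all pairs was −0.81. The percentile was higher in JNKi at 49 of 87 genes, where 42.2% of all pairs were higher. The largest differences, 45.2 points at Cox5a and 41.9 points at Ndufb9, were at genes with unmatched DMSO replicates and did not pass.

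cJun was seen at few of these genes. In DMSO, 7 of 88 marked respiratory chain genes (7.95%, exact 95% interval 3.26 to 15.7) had a cJun peak within 3 kb of a TSS, where 12.7% of all marked protein-coding genes did. The DMSO interval covered the share of all marked genes. In JNKi, 0 of 88 had one, which allows a share of up to 4.11% by the exact interval, where 4.72% of all marked genes did. The DMSO list held 4960 cJun peaks and the JNKi list 1632. A DMSO peak without a JNKi peak was also the usual case elsewhere, since 75.1% of genes marked in both lists with a DMSO cJun peak had none in JNKi. The 7 genes belonged to complex I (Ndufb2, Ndufs6 and Ndufv2), complex II (Sdhb), complex IV (Cox4i1 and Cox7a2l) and complex V (Atp5s).

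The cJun peak at Cox7a2l, a factor that joins complexes III and IV into supercomplexes, was the highest ranked, at 264 of 4960. It lay at chr17:83514398-83514788, 68 bp upstream of the nearest TSS, in no transcript of the basic annotation. That TSS is internal, since the span of the gene reaches to 83517330 at its 5′ end. Its −log10 p was 24.1 and 15.2 in the replicates, and its irreproducible discovery rate (IDR, an estimate of the share of such peaks that fail to replicate) was 0.0101. It was the 1 peak among the 7 with an IDR of at most 0.05, and with peaks limited to that IDR in all lists the DMSO share was 1.27% of marked respiratory chain genes and 1.47% of the other marked genes. In JNKi the shares under that limit were 0% and 1.10%. The nearest cJun peak in JNKi lay 11877 bp from the Cox7a2l TSS.

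At Atp5s, which encodes ATP synthase coupling factor B, the peak lay at chr12:69724982-69725408, in an intron 20 bp downstream of the TSS, with −log10 p of 21.3 and 10.9 and an IDR of 0.0533. At Cox4i1, the ubiquitous form of subunit 4 of complex IV, the peak at chr8:120667830-120668063 lay 159 bp upstream, with −log10 p of 10.8 and 11.8 and an IDR of 0.118. Its summit fell in coding sequence of Emc8, the gene that starts beside Cox4i1 on the other strand. At Ndufb2, an accessory subunit of complex I, the peak at chr6:39592317-39592828 covered the TSS and reached into introns of the overlapping models Gm42420 and Gm16272, an antisense RNA, with −log10 p of 12.5 and 8.67 and an IDR of 0.174.

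The other 3 peaks ranked lower. The Sdhb peak at chr4:140957807-140958261 (rank 2056, −log10 p 7.14 and 6.53, IDR 0.395) lay 2942 bp upstream of this iron-sulfur subunit of complex II, over an exon of the antisense RNA Gm13031. The Ndufs6 peak at chr13:73331023-73331232 (rank 2580, −log10 p 9.55 and 5.81, IDR 0.449) lay 2481 bp upstream, in an intron of Mrpl36, a gene of the mitochondrial ribosome. Both overlapped a second H3K4me3 peak and not the main one, of 1018 bp at Sdhb and 1550 bp at Ndufs6 in DMSO. The Ndufv2 peak at chr17:66101684-66102143 (rank 4812, −log10 p 18.5 and 3.21, IDR 0.556) lay 125 bp upstream of this complex I core subunit, and only 1 of its replicates was high.

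**Figure D4:**
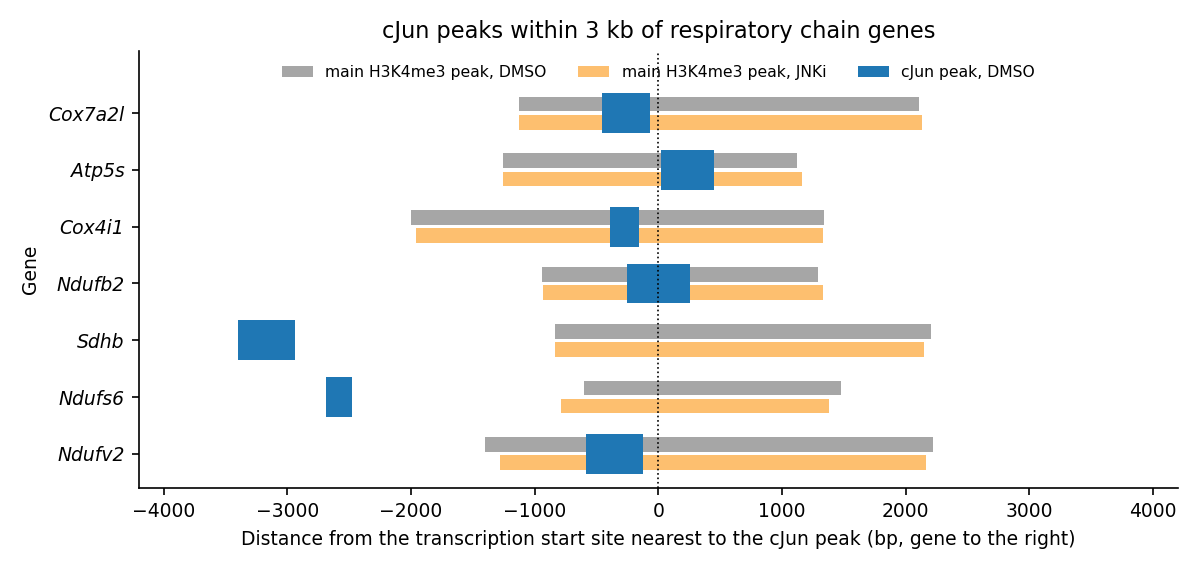
cJun peaks of the DMSO list (blue) and main H3K4me3 peaks in DMSO (grey) and JNKi (pale orange) at the 7 respiratory chain genes with a cJun peak within 3 kb, in bp from the TSS nearest to the cJun peak, with transcription to the right. At 5 genes the cJun peak lies inside the main H3K4me3 peak within 200 bp of the TSS, and at Sdhb and Ndufs6 it lies over 2 kb upstream, outside that peak. The H3K4me3 extents of the treatments nearly coincide.

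H3K4me3 remained at all 7 genes in JNKi, where no cJun peak was called. The H3K4me3 peak of Cox7a2l spanned 3208 and 3199 bp in DMSO and 3138 and 3162 bp in JNKi, and that of Cox4i1 3346 and 3296 bp and 3283 and 3252 bp. The log2 width differences of the 7 ranged from −0.07 at Ndufv2 (SE 0.07, limma adjusted p = 0.934) to 0.11 at Ndufs6 (SE 0.10, limma adjusted p = 0.899). None passed the threshold, and each was within the range of the other respiratory chain genes.

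No AP-1 or CRE letters lay within 100 bp of the summit of any of the 7 cJun peaks. Across the 1696 promoter cJun peaks in DMSO these shares were 4.36% for AP-1 and 1.24% for the CRE, so that a count of 0 among 7 is near the background. Over the whole peak, Atp5s held TGACTCA centred 226 bp from its summit, and Ndufb2 held TGACGTCA in the promoter printed above, centred 144 bp from its summit.

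The promoters of the 88 marked genes were also described by motif, over the window of 250 bases before to 50 bases after the gene's 5′ end. That end is not always the marked TSS. At Cox7a2l the window lay outside the H3K4me3 peak and held none of the motifs, unlike the promoter printed above. YY1 letters stood in 17 promoters (19.3%), against 7.63% of the other marked genes and 6.16% of all protein-coding genes. NRF1 letters stood in 7 (7.95%), against 3.34% and 2.48%. ETS letters stood in 18 (20.5%), against 16.1% and 10.8%, and ERR letters in 2 (2.27%), Sdhd and Atp5g3, against 0.389% and 0.474%. SP1 letters stood in 38 (43.2%), a lower share than the 60.9% of the other marked genes and near the 43.0% of all. About the TSS nearest to the H3K4me3 summit the share was 42.0% for SP1 (others 68.0%) and 23.9% for YY1 (others 8.89%). These are counts of letters without a test.

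The CCAAT box stood in 36 promoters (40.9%), against 38.6% and 39.0%, but in 38.5% of those of subunits alone. CRE letters stood in 4 (4.55%), namely Ndufa10, Ndufa11, Ndufb2 and Uqcrfs1, against 3.37% and 2.43%, and AP-1 letters in 2 (2.27%), Uqcrh and Atp5c1, against 3.21% and 4.59%. With a window of 500 bases before to 100 after, the AP-1 share was 10.2%, against 6.64% of the other marked genes, and the CCAAT share was 52.3%, against 56.0%, both in the opposite order. Of the 6 genes named, Ndufb2 had a cJun peak.

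**Figure D5:**
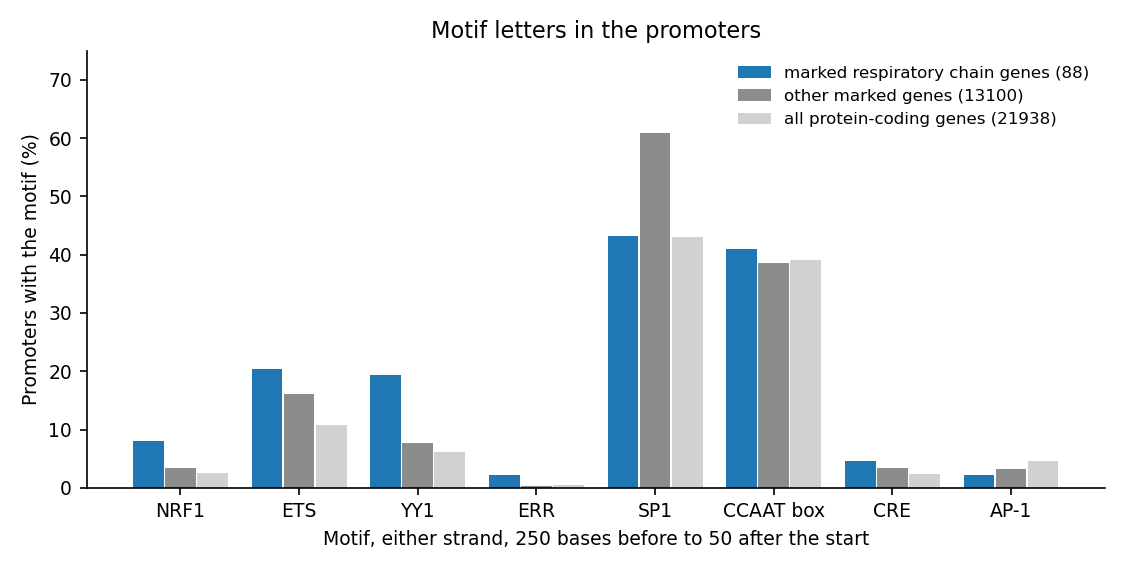
Share in % of promoters that hold each motif on either strand (y axis) for the 88 marked respiratory chain genes, the 13100 other marked genes and all 21938 protein-coding genes, by motif (x axis). The bars of the respiratory chain genes stand above the others for YY1 (19.3%) and NRF1 (7.95%) and below the other marked genes for SP1 (43.2%).

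Many of these promoters were shared with a neighbour. A protein-coding gene started within 1 kb on the opposite strand at 33 of 88 marked genes (37.5%), against 16.8% of the other marked genes, and at 27 of them the distance was at most 200 bp. The main H3K4me3 peak lay within 3 kb of more than 1 protein-coding gene at 39 of 88 (44.3%), against 23.9%. Partners included other mitochondrial genes. Ndufs6 faced Mrpl36 and Ndufb5 faced Mrpl47, both of the mitochondrial ribosome, and Sdhd faced Timm8b, of protein import. Atp5j, a peripheral stalk subunit, faced Gabpa, the DNA-binding subunit of GABP, at a distance of 501 bp, and both genes had the same main peak of 3365 and 3383 bp in the DMSO replicates. Width at such a pair cannot be assigned to 1 gene. The median GC content of the promoters was 56.3%, with 17 CpG dinucleotides, against 60.0% and 19 at the other marked genes.

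Other genes of the pathway, taken from a fixed list of 36 electron carriers and assembly factors outside the name rule, were all marked in both treatments. Their median width was 2460.5 bp and their median percentile 70.8 in DMSO, near the values of the other marked genes. Cox14, Ttc19 and Uqcc2 had a cJun peak in DMSO and none of the 36 had one in JNKi, where 12.7% and 4.72% of all marked genes did. The limma test of width called 0 of 36, where 1.71% of all pairs were called. Cycs, which encodes cytochrome c, the carrier between complexes III and IV, spanned 2546 and 2569 bp in DMSO and 2693 and 2679 bp in JNKi. Of 14 regulators of mitochondrial genes, all were marked, where 60.1% of all protein-coding genes were in DMSO, and 0 were called, where 1.71% of all pairs were. Yy1 itself had a broad peak of 6292 and 6219 bp in DMSO and 6056 and 5892 bp in JNKi, Nrf1 one of 3432 and 3521 bp in DMSO, and Ppargc1b, a coactivator of this program, was the 1 regulator with a cJun peak, in both lists. The highest cJun peak at Ppargc1b had an IDR of 0.221 in DMSO and 0.672 in JNKi.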

How the data were processed

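CUT&RUN peak lists from Min6 cells were used, 4 of them, each for 1 group of 2 replicates, with groups from the labels. The authors trimmed reads with Trimmomatic, aligned them to GRCm38 with Bowtie2 2.4.2, filtered them with SAMtools 1.16, called peaks per replicate with MACS2 2.2.7.1 against IgG and joined replicates with IDR. The deposited files, without a header, hold coordinates, −log10 p-values and a −log10 IDR for the joined peak, with coordinates and −log10 p of each replicate. The deposited score is a scaled IDR and was not used. The deposited joined −log10 p was the lower of the replicates' values. The lists were not limited by IDR, and the lowest −log10 p was just above 3. The methods name default MACS2 settings, which act on a q-value, so the cut-off behind the lists is unknown. The nominal depth was 30000000 reads per sample per the methods, and mapped reads were not analysed here. Replicate columns carry no replicate number.

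A gene was marked if a base of an H3K4me3 peak lay within 3 kb of a TSS of the GENCODE vM21 basic annotation, and its main peak was the highest by −log10 p. Percentiles are ranks within a list or replicate column. Pairs of overlapping main peaks were compared with limma 3.58.1 (trend) in R 4.3.3 on log2 widths and percentiles, and Benjamini-Hochberg adjustment covered all pairs. Whether replicates came from separate cultures was not used, so p-values measure the spread between the replicate columns. Share intervals are exact binomial and median intervals come from order statistics. Sequence was read from GRCm38. Named genes were those with a cJun peak, without H3K4me3, the 3 widest, narrowest, highest and lowest ranked in each list, and the 3 largest width changes each way. Other genes were named for their motif, partner, role or list and were chosen after their values were seen. Members and lists were chosen with earlier results of these data known. The scripts were tested on simulated data with a replicate spread set below the pooled spread of these data and with larger changes than those of the members. That test does not measure the power of the comparisons made here. Analyses used Python 3.11.15, pandas 2.3.3 and pysam 0.24.0. Alternatives covered the IDR limit, the window, the choice of main peak, shared peaks, subunits only, the limma settings, each replicate left out and the promoter window. Some genes and sequences are not reported here.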

Additional observations from a re-analysis of the deposited data

How the results depend on the processing

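The direction of each of the 4 differences in median H3K4me3 width and rank percentile from the other marked genes held in all 38 alternative values, but the width difference in DMSO, 201 bp, was 33 and 38 bp under the IDR limits of 0.05 and 0.01 and 80 bp without shared peaks. An IDR of at most 0.05 gave a marked share of 84.0% in DMSO (others 53.4%), a median percentile of 73.8 in DMSO and 77.4 in JNKi (63.7 and 64.5 at the other genes), and a cJun share in DMSO of 1.27% beside 1.47% of the others. That limit left out the high-ranked DMSO peaks of Ndufb10, Uqcrh, Ndufb8 and Atp5b (IDR 0.0814, 0.0860, 0.0672 and 0.306). It kept 89.6% of the top 10% of all DMSO H3K4me3 peaks. An IDR of at most 0.01 gave 83.0% marked in both treatments (others 51.6% and 51.5%), median percentiles of 74.4 and 77.7, a cJun share in DMSO of 0% (others 0.825%) and a cJun difference in JNKi of −0.489 points. The 5 kb window gave a cJun difference in JNKi of −5.05 points, and peaks that cover a TSS a cJun share in DMSO of 1.15% (others 6.19%). Without shared peaks the median widths were 2483 bp in DMSO and 2556.5 bp in JNKi (others 2403 and 2453), and the percentile differences 12.5 and 14.8 points.

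For the width comparison, centring the columns called 1 member, Cox5a (−0.28, limma adjusted p = 0.0312), with a member median of −0.0253, where 236 of 11261 pairs were called and their median was −0.0161. All pairs called numbered 75 and 55 under the IDR limits and 104 without trend. Cox5a and Ndufb9, whose DMSO peaks had an IDR of 0.306, were not tested under those limits. Leaving out 1 replicate gave 0 member calls, 33 to 98 calls over all pairs and member medians of −0.0188 to 0.0449. For percentiles, the IDR limits gave 1 call over all pairs each and member medians of 2.26 and 2.46 points. Calls over all pairs were 5 without trend, 0 with a logit and 14, in an alternative added after seeing the data, without peaks whose replicates differ by over 50 points. Leaving out 1 replicate gave 0 to 164 calls over all pairs, member medians of 0.271 to 1.27 points, and 0 to 2 member calls, Cox5a and Ndufb9 being called without the second-listed DMSO replicate, where their low DMSO value remained and the lone replicate is assumed to vary like those of JNKi. The window of 500 bases before to 100 after gave shares of 30.7% for YY1 (others 12.8%), 52.3% for the CCAAT box (56.0%) and 10.2% for AP-1 (6.64%). The cause of these changes was not tested. No paired analysis was possible because the replicate columns carry no replicate number. The number of mapped reads, not analysed here, limits what a missing cJun peak shows.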
